A study of Arabidopsis thaliana with 12 samples.

Results

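The genes described here are 9 loci of the cysteine-rich transmembrane module (CYSTM) family of Arabidopsis thaliana, AT2G32190, AT2G32200, AT2G32210, AT1G05340, AT1G56060, AT4G33660, AT5G04080, AT3G22235 and AT3G22240. Each of the 9 was paired with exactly 1 of the 17481 probe sets that could be tied to a gene, and none of them lay in a probe set shared by several genes. The family was taken up because of 1 member. AT2G32200 stood among the largest differences between light and dark in wild type and between the genotypes after light. Its own values in those contrasts, and in the difference between the light effects that is built from them, are therefore given as a description with no test. The other 8 loci were listed for belonging to the family. They were listed with earlier results of these arrays known, so a count over them is not independent evidence.

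CYSTM proteins are very short proteins of eukaryotes that end in a membrane-spanning stretch rich in cysteines. They are thought to sit at membranes. In plants, members such as PCC1 and CDT1 are known from responses to pathogens and to heavy metals, and many genes of the family respond to abiotic stress. For most single members no molecular role is established, so the loci are grouped below by their place in the genome and by how they behaved, not by function.

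Seedlings of ecotype Col-0, either wild type (WT) or rb10, grew for 5 days in darkness on sucrose-free half-strength MS medium. They were taken then (WT dark, rb10 dark) or after 1 h of white light (WT light, rb10 light). Each of the 4 groups has 3 Affymetrix Gene 1.0 ST arrays, 12 in all, each with total RNA from a pool of whole seedlings, described as biological replicates. How many seedlings made a pool is not stated in the labels. The labels explain rb10 no further. What is known of the study makes it a mutant of RAPTOR1B, the TOR kinase partner that recruits substrates, and a single mutant line stands for the loss of that gene. In RNA from whole seedlings, fewer cells of one type and less RNA per cell cannot be told apart.

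RAPTOR1 (AT3G08850, the RAPTOR1B gene) had a log2 signal between 11.58 and 11.84 in the 6 WT samples and between 10.89 and 11.13 in the 3 rb10 light samples. Replicates 1 and 2 of rb10 dark read 11.06 and 11.08, but the array labelled rb10 dark replicate 3 read 11.60, within the range of the WT arrays. Across the tested probe sets that array had a mean correlation of 0.9909 with the 3 WT dark arrays and of 0.9796 with the other 2 rb10 dark arrays. It is kept under its label, and results that use it are given with it first and then without it. The fit without it takes the spread of the 2 remaining rb10 dark arrays to be that of the other groups. Of the markers for shoot and root chosen to check the tissue, 1 of 5 and 2 of 7 were paired with a probe set. RCA (Rubisco activase, green shoot cells) read 9.59 to 10.69 over the 12 arrays, and the mean of the root epidermis expansin genes EXPA7 and EXPA18 read 4.13 to 5.37, so the check of whole seedlings rests on 3 genes.

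Levels below are log2 signals of a probe set on 1 array, differences are between group means in log2 units (1 unit is a doubling of linear signal), and the error of a group is the standard deviation (SD) of 3 arrays. Standard errors (SE) and 95% intervals of differences are those of a limma model fitted to all 17481 probe sets, with Benjamini-Hochberg adjustment within each comparison. A gene is said to rise or fall only where its adjusted p was under 0.05. Levels of different probe sets are not set against each other.

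The first question was which CYSTM genes responded to 1 h of light in WT. Genes of the block AT2G32190, AT2G32200 and AT2G32210 and the gene AT1G56060 were strongly higher after light, by 2.17 to 5.54 in log2. None of the other 5 loci passed the test. The block genes are direct neighbours in the TAIR10.1 annotation, with no protein-coding gene between them.

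AT2G32200, in the middle of the block, read 4.80, 4.82 and 5.28 on the WT dark arrays. On the WT light arrays it read 10.89, 10.35 and 10.28. Every WT light array lay more than 5 log2 units above the WT dark mean of 4.97 ± 0.27 (SD, n = 3). The difference was 5.54 (SE 0.21, 95% interval 5.08 to 5.998, n = 3 arrays per group), which is 46.5-fold in linear signal and rank 3 from the top among the 17481 probe sets.

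AT2G32190, the neighbour on one side, read 5.55, 5.80 and 5.74 in WT in the dark and 9.44, 8.61 and 9.45 after light. The 2 groups of arrays were far apart. It rose by 3.47 (SE 0.24, adjusted p = 6.02e-06 in limma), or 11.1-fold, rank 23. AT2G32210, the neighbour on the other side, read 3.03, 3.19 and 3.33 in the dark and 5.18, 5.71 and 5.80 after light. It rose by 2.39 (SE 0.18, adjusted p = 1.43e-05 in limma). Its mean signal was in the lowest 25% of tested probe sets, where array signal can be close to background, so its differences are those of the measured signal and no fold is given. The probe sequences are not used here, so how much signal probes of the 3 adjacent copies could share was not tested.

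AT1G56060 lies on another chromosome. In WT it read 6.59, 6.50 and 6.33 in the dark and 9.53, 8.05 and 8.35 after light. Light replicate 1 was more than 1 unit above the other two, yet all 3 light arrays were above all dark arrays. The rise was 2.17 (SE 0.31, adjusted p = 0.00116 in limma), 4.50-fold and rank 104.

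AT4G33660 read 7.44, 7.61 and 7.86 in WT in the dark and 8.94, 8.71 and 8.09 after light. The groups did not overlap, but the difference of 0.95 (SE 0.27, 95% interval 0.36 to 1.54) did not pass (adjusted p = 0.063 in limma). It passed when WT light replicate 3, the lowest of the light arrays, was left out (1.19, adjusted p = 0.0273), and also without rb10 dark replicate 2, which enters through the shared spread (adjusted p = 0.0375). AT1G05340 had a high signal in WT, 11.63, 11.99 and 11.88 in the dark and 12.33, 12.12 and 12.15 after light. Its arrays did not overlap either, and the difference was 0.37 (SE 0.23, adjusted p = 0.447 in limma).

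The last 3 loci showed overlapping WT arrays. The differences were 0.27 for AT5G04080 (95% interval -0.13 to 0.66), -0.32 for AT3G22235 (-0.84 to 0.20) and 0.14 for AT3G22240 (-0.11 to 0.38). Those intervals leave room for changes of either sign that are small beside the rise of the block genes.

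Leaving AT2G32200 aside, 3 of 8 CYSTM genes rose in WT and 0 fell, where 4.62% of all tested probe sets rose and 2.27% fell. The light arrays lay wholly above the dark arrays for 5 of the 8, where 11.1% of all probe sets did so. The median change of the 8 was 0.66 and that of all probe sets -0.06. This contrast led to the choice of the family, so the shares are given for reference and nothing is read from them.

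**Figure D1:**
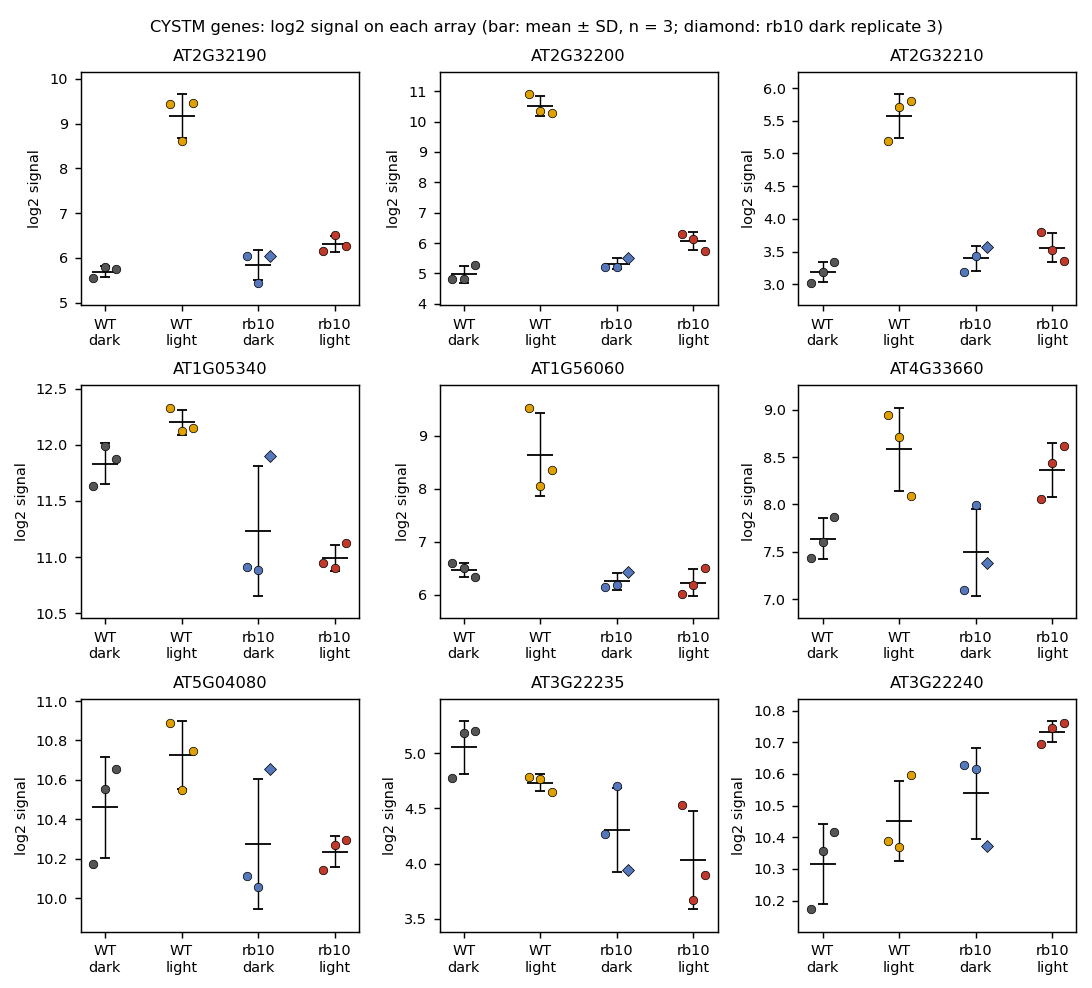
Log2 signal of the 9 CYSTM probe sets on each of the 12 arrays, by group on the horizontal axis (points are arrays, horizontal bars with whiskers are mean ± SD, n = 3, and the diamond is the array labelled rb10 dark replicate 3). The block genes AT2G32190, AT2G32200 and AT2G32210 and AT1G56060 are high in WT light only among the 4 groups, while AT1G05340 is low on 5 of the 6 rb10 arrays. Vertical scales differ between panels.

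The second question was whether the same genes responded in rb10. No CYSTM gene passed the test there. AT2G32200 and AT4G33660 came closest.

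AT2G32200 read 5.23, 5.20 and 5.52 on the rb10 dark arrays and 6.31, 6.15 and 5.75 on the rb10 light arrays. The light arrays were all above the dark arrays, by less than the gap in WT. The difference was 0.75 (SE 0.21, 95% interval 0.29 to 1.21, adjusted p = 0.0549 in limma), or 1.69-fold, and it passed without WT light replicate 1 (adjusted p = 0.0373) or without rb10 light replicate 3 (0.91, adjusted p = 0.0419). It was 0.85 without rb10 dark replicate 3 (adjusted p = 0.0617). The rb10 light arrays also entered the contrast on which this gene was chosen.

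AT2G32190 read 6.03, 5.45 and 6.04 in rb10 in the dark and 6.16, 6.51 and 6.27 after light, again without overlap. Its difference was 0.47 (SE 0.24, adjusted p = 0.3 in limma). AT2G32210 read 3.19, 3.44 and 3.56 in the dark and 3.79, 3.53 and 3.36 after light, with overlapping arrays and a difference of 0.16 (SE 0.18, adjusted p = 0.703 in limma). These differences became 0.57 and 0.25 without rb10 dark replicate 3. When 1 array was left out, that of AT2G32190 ranged from 0.28 to 0.57. That of AT2G32210 ranged from 0.045 without rb10 light replicate 1 to 0.26 without rb10 light replicate 3.

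AT1G56060 read 6.14, 6.18 and 6.43 in rb10 in the dark and 6.01, 6.18 and 6.50 after light. These arrays were intermingled. The difference was -0.02 (SE 0.31, 95% interval -0.70 to 0.66), and the interval ends well below the rise measured in WT. The difference was 0.068 without rb10 dark replicate 3.

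AT4G33660 read 7.10, 7.997 and 7.38 in rb10 in the dark and 8.05, 8.43 and 8.61 after light. All light arrays were higher than all dark arrays, rb10 dark replicate 2 only just below them. The difference was 0.87 (SE 0.27, 95% interval 0.28 to 1.46, adjusted p = 0.0824 in limma), close in size to the 0.95 of WT. Without rb10 dark replicate 2 it was 1.13 and passed (adjusted p = 0.0309), and without replicate 3 it was 0.82 (adjusted p = 0.189).

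The remaining loci gave small differences in rb10. AT3G22240 read 10.63, 10.62 and 10.37 in the dark and 10.70, 10.74 and 10.76 after light, a difference of 0.19 (SE 0.11) without overlap. AT1G05340 (-0.24, SE 0.23), AT5G04080 (-0.04, SE 0.18) and AT3G22235 (-0.27, SE 0.24) overlapped. The first 2 of these turned positive without rb10 dark replicate 3, to 0.094 and 0.15, while AT3G22235 gave -0.45 and AT3G22240 gave 0.11.

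Counted over all members, 0 of 9 passed in rb10 in limma, where 7.17% of all probe sets passed in either direction. An unadjusted p under 0.05, a looser threshold not to be set against that share, was reached by 2 members. The light arrays lay wholly above the dark arrays for 4 of 9, against 10.8% of all probe sets. The median of the 9 was 0.16 and that of all probe sets -0.03. Without rb10 dark replicate 3 the count was again 0 in limma, where 6.34% of all probe sets passed.

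**Figure D2:**
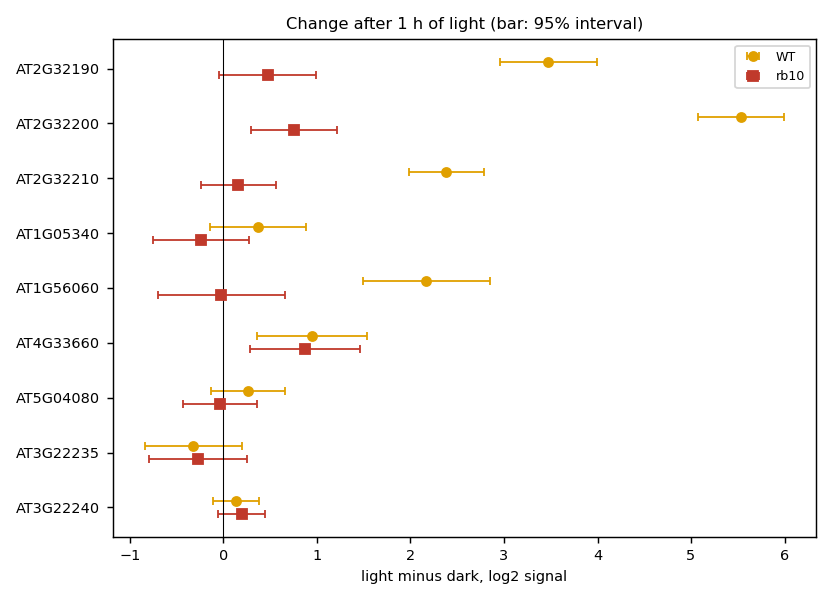
Difference between light and dark in log2 signal (horizontal axis) for each CYSTM gene, in WT (circles) and rb10 (squares), with 95% intervals from the limma fit to 12 arrays. The largest values are those of WT for the block genes and AT1G56060, and AT4G33660 has almost the same value in both genotypes (0.95 and 0.87). The values of AT2G32200 in WT are shown as a description, since they led to the choice of the family.

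Whether the light effect itself differed between the genotypes was tested as the interaction. The difference of light effects, rb10 minus WT, was -3.00 for AT2G32190 (SE 0.33, adjusted p = 0.00188 in limma) and -2.22 for AT2G32210 (SE 0.26, adjusted p = 0.00227 in limma). AT2G32200, described without a test, gave -4.79 (SE 0.29), rank 3 from the bottom of 17481. With rb10 dark replicate 3 left out, the values were -2.90 for AT2G32190 (adjusted p = 0.00564), -2.14 for AT2G32210 (adjusted p = 0.00584) and -4.68 for AT2G32200.

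For AT1G56060 the interaction was -2.19 (SE 0.44, adjusted p = 0.0268 in limma). That call was less firm. It was lost in 7 of the 12 fits that left out 1 array, namely those without WT dark replicate 1, 2 or 3, rb10 dark replicate 2 or 3, or rb10 light replicate 1 or 2, with values from -2.25 to -2.08 and adjusted p from 0.0523 to 0.0721.

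The other 5 loci did not pass. The interaction was -0.61 for AT1G05340 (95% interval -1.34 to 0.12), and -0.28 without rb10 dark replicate 3. It was -0.07 for AT4G33660 (-0.91 to 0.76), so the data allow a difference of up to almost the size of its light effect. For AT5G04080 it was -0.30 (-0.86 to 0.25), for AT3G22235 0.05 (-0.69 to 0.79) and for AT3G22240 0.06 (-0.29 to 0.41). These last 4 values were -0.13, -0.11, -0.13 and -0.024 without rb10 dark replicate 3, so the sign of the AT3G22235 and AT3G22240 values turned.

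In all, 3 of the 8 members other than AT2G32200 had a lower light effect in rb10, where 1.67% of all probe sets did, and 0 had a higher one, where 0.503% of all probe sets did. Without rb10 dark replicate 3 the count of lower effects was 2, with 1.66% of all probe sets. As this contrast draws on those that chose the family, nothing is read from the shares.

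The third question was how the genes differed between the genotypes before light. In the dark no member passed in limma with every array, where 0.00572% of all probe sets passed. An unadjusted p under 0.05, a looser threshold not to be set against that share, was reached by 2 members. The block genes differed by 0.35 or less, with overlapping arrays, and AT1G05340 and AT3G22235 had the largest differences.

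The difference, rb10 minus WT, was 0.14 for AT2G32190 (95% interval -0.37 to 0.66), 0.35 for AT2G32200 (-0.11 to 0.81) and 0.21 for AT2G32210 (-0.19 to 0.62). The intervals of AT2G32190 and AT2G32210 lie far from the differences these genes had after light. The WT dark arrays entered a contrast on which AT2G32200 was chosen, so its interval is not set against its value after light. AT1G56060 differed by -0.22 (-0.90 to 0.46) and AT4G33660 by -0.14 (-0.73 to 0.45). With rb10 dark replicate 3 left out, the block genes gave 0.046, 0.25 and 0.13 in the same order, AT1G56060 gave -0.31 and AT4G33660 gave -0.088, and none of these passed.

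AT1G05340 depended on 1 array. It read 10.92 and 10.88 on rb10 dark replicates 1 and 2, below every WT dark array (11.63 to 11.99), and 11.90 on replicate 3, within the WT range. With every array the difference was -0.60 (SE 0.23, adjusted p = 0.287 in limma). Without replicate 3 it was -0.93 (SE 0.13, adjusted p = 0.00226 in limma), 1.91-fold lower in rb10.

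AT5G04080 followed AT1G05340 from array to array. On rb10 dark replicates 1 and 2 it read 10.11 and 10.06, and on replicate 3 it read 10.65, at the top of the WT dark range of 10.17 to 10.65. Its difference was -0.19 (SE 0.18) with every array and -0.38 (SE 0.16, adjusted p = 0.168 in limma) without replicate 3. After the group means were taken off, the arrays' deviations of the 2 genes had a Pearson r of 0.878 over 12 arrays and 0.801 without replicate 3, a description of arrays that share their RNA pools.

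AT3G22235 and AT3G22240 lie beside each other, next to PCC1, which was not paired with a probe set. AT3G22235 read 4.78, 5.18 and 5.20 in WT in the dark and 4.27, 4.70 and 3.94 in rb10 in the dark. It was the 1 member of 9 with all rb10 arrays below all WT arrays, where 8.55% of probe sets were, and its mean signal lay in the lowest 25% of probe sets. The difference was -0.75 (SE 0.24, adjusted p = 0.255 in limma), and -0.57 without rb10 dark replicate 3. AT3G22240 read 10.17, 10.36 and 10.42 in WT in the dark, and its difference was 0.22 (SE 0.11, adjusted p = 0.379 in limma), or 0.31 without that array (adjusted p = 0.122).

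Without rb10 dark replicate 3, 1 of 9 members was lower in rb10 in the dark (AT1G05340) and 0 were higher, where 4.39% of all probe sets were lower and 5.68% higher. The array had its reading nearer to the WT dark mean than to that of the other rb10 dark arrays for AT1G05340, AT1G56060, AT5G04080 and AT3G22240. For the other 5 loci it was nearer to the rb10 dark arrays, and for the block genes it was the highest of the 6 dark arrays.

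The fourth question was how rb10 differed from WT after light. The block genes and AT1G56060, the 4 members with the largest light differences in WT, were also those with the largest genotype differences, from -4.44 to -2.01. Both differences use the same WT light arrays, and AT2G32200 was chosen on both, so nothing is read from this match. AT1G05340 was lower as well, although it had not passed for light in either genotype.

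AT2G32200 was 21.7-fold lower in rb10 after light (difference -4.44, SE 0.21, 95% interval -4.90 to -3.98), rank 4 from the bottom of 17481 and given with no test. AT2G32190 differed by -2.85 (SE 0.24, adjusted p = 6.05e-05 in limma), rank 26 from the bottom. AT2G32210 differed by -2.01 (SE 0.18, adjusted p = 9.79e-05 in limma). All rb10 light arrays lay below all WT light arrays for each of these genes.

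AT1G56060 was lower by 5.33-fold (difference -2.42, SE 0.31, adjusted p = 0.000587 in limma). AT1G05340 read 10.95, 10.90 and 11.12 on the rb10 light arrays, against 12.12 to 12.33 in WT light. It was lower by 2.31-fold (difference -1.21, SE 0.23, adjusted p = 0.00545 in limma), and its SE was 0.12 without rb10 dark replicate 3. For this gene the difference in the dark without that array, -0.93, was already most of the difference after light, whereas for the block genes the dark difference without that array was small and of the other sign (0.046 to 0.25).

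AT5G04080 read 10.14, 10.27 and 10.30 in rb10 light and 10.89, 10.55 and 10.75 in WT light, without overlap. Its difference of -0.49 (SE 0.18) did not pass (adjusted p = 0.0809 in limma), but passed without rb10 dark replicate 3 (adjusted p = 0.0299) and with equal array medians (-0.64, adjusted p = 0.0367). Equal medians moved the median genotype difference of all probe sets after light by -0.149, so that value holds a shift not particular to this gene. AT3G22235 read 4.53, 3.67 and 3.90 in rb10 light and 4.79, 4.77 and 4.65 in WT light. Its difference was -0.70 (SE 0.24, adjusted p = 0.0623 in limma). It passed without rb10 dark replicate 2 (adjusted p = 0.047), without rb10 dark replicate 3 (adjusted p = 0.043) and without rb10 light replicate 1 (-0.95, adjusted p = 0.0189).

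AT3G22240, its neighbour, read higher in rb10 light than in WT light on all arrays, 10.70 to 10.76 against 10.37 to 10.60. The difference was 0.28 (SE 0.11, 95% interval 0.03 to 0.53) and did not pass (adjusted p = 0.109 in limma). AT4G33660 overlapped, with a difference of -0.22 (-0.81 to 0.38).

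Of the 8 members other than AT2G32200, 4 were lower in rb10 after light and 0 higher, where 9.47% of all probe sets were lower and 9.72% higher. The rb10 arrays lay wholly below the WT arrays for 6 of the 8, against 19.7% of all probe sets, and wholly above them for 1, against 18.9%. Without rb10 dark replicate 3 the count of lower members was 6, where 11.8% of all probe sets were lower. The median of the 8 was -0.96 and that of all probe sets -0.02. This contrast too had led to the choice of the family, so nothing is read from the shares. On the same arrays RCA was higher in rb10 (0.48, SE 0.11, adjusted p = 0.0129 in limma), and the mean of EXPA7 and EXPA18 ranged from 4.84 to 5.37 in rb10 light and from 4.40 to 4.65 in WT light, with neither gene passing. The part of these organ markers in the CYSTM differences was not tested.

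**Figure D3:**
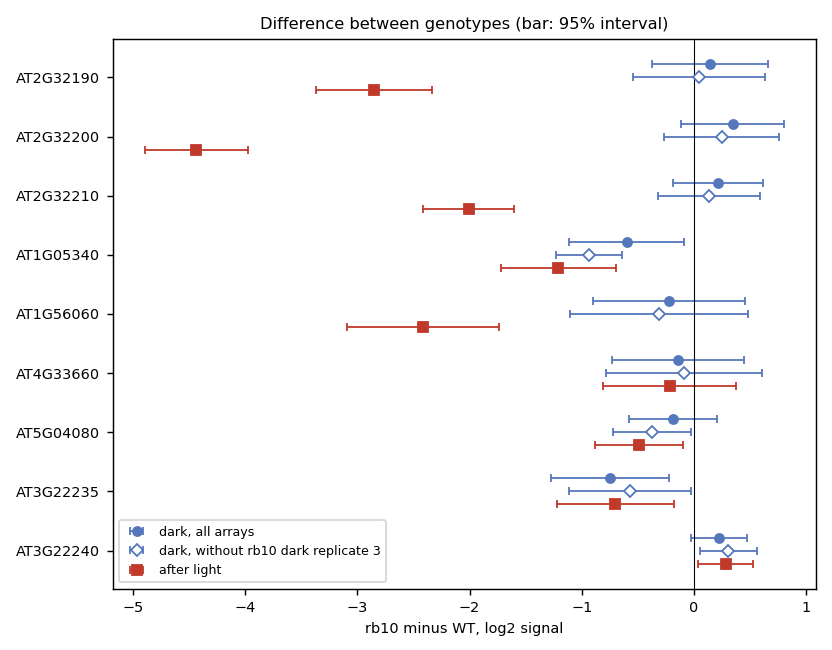
Difference between rb10 and WT in log2 signal (horizontal axis) for each CYSTM gene in the dark with every array (filled circles), in the dark without rb10 dark replicate 3 (open diamonds) and after light (squares), with 95% intervals from limma. The block genes and AT1G56060 are near 0 in the dark and between -4.44 and -2.01 after light. AT1G05340 and AT3G22235 have intervals below 0 in both, although neither passed in the dark with every array.

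Other genes of the family and of fast stress responses were read for comparison. Of 5 further CYSTM loci only AT2G33520 was paired with a probe set. It read 3.68 to 4.19 over the 12 arrays, a signal among the lowest 25% of probe sets, where a change could go unseen. It passed in none of the comparisons, with a light difference of -0.07 in WT (SE 0.15) and a genotype difference after light of -0.03 (SE 0.15).

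A list of 30 genes known for rapid responses to stress, put together with some of these results known, had 10 measured members. All 10 rose in WT after light (median 2.63), where 4.62% of all probe sets rose. The largest rises were those of CML37 (AT5G42380, 3.32, SE 0.20), a calmodulin-like calcium sensor, STZ (AT1G27730, 3.15, SE 0.14), a zinc finger repressor, and CML38 (AT1G76650, 2.85, SE 0.37), another calmodulin-like protein. In rb10 only STZ of the 10 rose (1.32, SE 0.14, adjusted p = 0.000233 in limma), where 3.42% of all probe sets rose. Without rb10 dark replicate 3 STZ alone rose again (1.30, SE 0.16, adjusted p = 0.00111 in limma), where 3.17% of all probe sets rose. As the list was made with results known, nothing is read from these shares.

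In the dark 0 of the 10 stress genes differed between the genotypes in limma, and 0 had an unadjusted p under 0.05. Only 0.00572% of all probe sets passed there with every array, so a count of 0 passing says little about these genes. The smallest p was that of AT5G64870, a flotillin-like gene (-0.46, SE 0.23). Without rb10 dark replicate 3 again 0 passed, where 4.39% of all probe sets were lower and 5.68% higher. An unadjusted p under 0.05 was then reached by AT5G64870 (-0.70, SE 0.21), AT3G10930 (-0.49, SE 0.15) and AT3G28580 (-0.81, SE 0.28). The lowest adjusted p was 0.0627 in limma (AT5G64870). AT2G35930 (0.49) and AT1G66090 (0.33) had differences of the other sign, with larger p. After light 9 of 10 were lower in rb10, against 9.47% of all probe sets, with CML38 (-3.84, SE 0.37), the singlet oxygen marker AT3G28580 (-3.51, SE 0.30) and CML37 (-3.10, SE 0.20) at the head. Of these 10 genes 8 had a lower light effect in rb10 by the interaction, or 7 without rb10 dark replicate 3, against 1.67% and 1.66% of all probe sets. The stress genes and the CYSTM genes share the arrays, and no test of likeness was made.

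**Figure D4:**
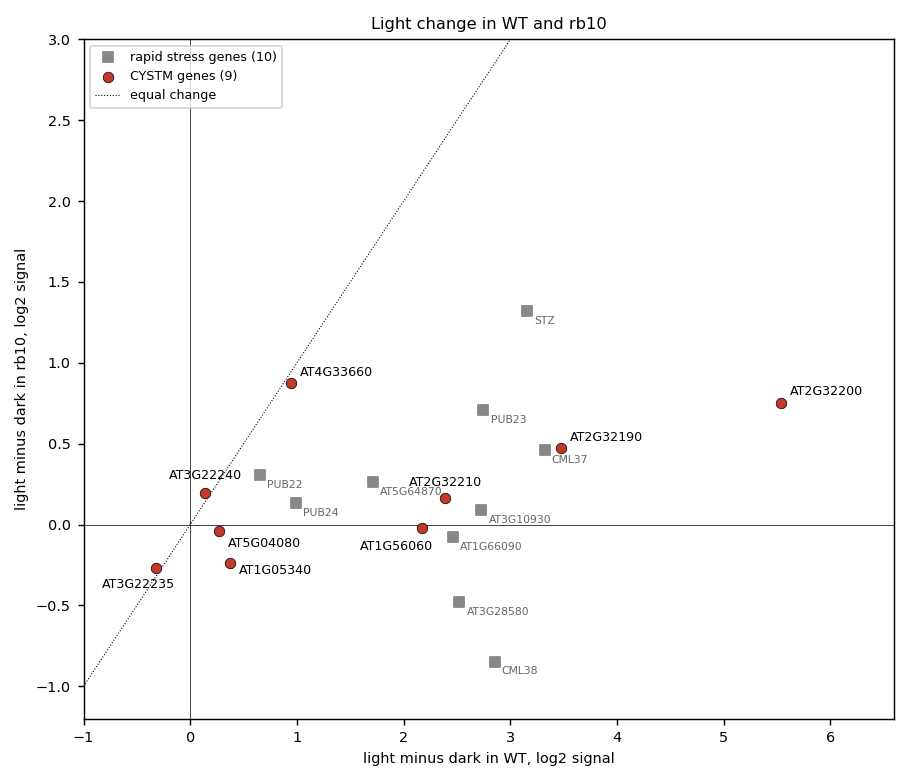
Difference between light and dark in WT (horizontal axis) and in rb10 (vertical axis), both in log2 signal, for the 9 CYSTM genes (circles) and the 10 measured rapid stress genes (squares). The dotted line marks equal change. AT4G33660 (0.95 and 0.87) lies near it, and the block genes and AT1G56060 lie far below it.

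The genes whose signal followed AT2G32200 most closely were found by Pearson r over the 12 arrays among 16661 probe sets of other genes. These were AT4G27280 (r = 0.985), AT4G15420 (0.985), AT1G07135 (0.984), AT5G37670 (0.984), a small heat shock protein gene, and CML37 (0.984). Their differences between light and dark in WT were 1.65, 0.98, 2.15, 3.88 and 3.32, and in rb10 0.35, 0.26, 0.09, 0.29 and 0.46. In all 230 probe sets had r above 0.9 with AT2G32200, since 3 arrays of one group stand far above the other 9.

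The same search for AT1G56060, among the members called most often besides AT2G32200 the one with the lowest locus code, gave AT3G26910 (r = 0.981), SUFE2 (AT1G67810, 0.980), AT5G22520 (0.979), AT3G46110 (0.975) and the peroxidase gene Prx37 (AT4G08770, 0.974). Their differences in WT ranged from 0.65 to 2.97 and in rb10 from -0.02 to 0.12.

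Between the members themselves, AT2G32200 had r = 0.984 with AT2G32190, 0.974 with AT2G32210 and 0.922 with AT1G56060 over the 12 arrays. After the group means were taken off these fell to 0.313, 0.028 and 0.374, so most of the likeness lay between groups and little of it between replicates. AT2G32210 and AT1G56060, with r = 0.856 over the arrays, had -0.741 for the deviations, WT light replicate 1 being the lowest of its group for the one and the highest for the other.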

How the data were processed

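Total RNA of 12 seedling pools was measured on 1 Affymetrix Gene 1.0 ST array each. The authors deposited a log2 signal for each probe set. RMA and GCRMA are both named, per the submitters' processing notes, without a version or a word on which of them gave these values, and a genome build is not given in the sources used here. The values were used as deposited. Arrays give no counts, so their number limits the precision, and the p-values rest on the spread among these samples, part of which may be technical.

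Of 38408 probe sets 16722 were paired with 1 gene and 759 with several through the platform annotation and the TAIR10.1 gene table (names and gene order only). These 17481 were tested without a filter. A model of 4 group means over the 12 arrays was fitted with limma 3.58.1 in R 4.3.3 (8 residual and 2.79 prior degrees of freedom), with Benjamini-Hochberg adjustment within each of 5 comparisons and a threshold of 0.05. Figures were drawn with matplotlib 3.10.9. The test was run on simulated data first.

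Members, lists and tests were chosen with earlier results of these data known. All 9 members are named. From each list up to 3 called genes with the largest change are named, or the one with the smallest p. The 5 probe sets with the highest r to AT2G32200 and to the next most often called member are named too. Alternatives were a replicate block, only the compared groups in the fit, quantile normalization, equal array medians, leaving out the lowest 25% by signal, testing every probe set, a trended robust prior, and leaving out each array. Planned searches of promoters and proteins were not run, as no sequences were used here.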

Additional observations from a re-analysis of the deposited data

Results flagged for a closer look

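The light effect differed between the genotypes, by the test of the difference itself, for AT2G32190 (-3.00 in log2, rb10 minus WT, SE 0.33), AT2G32210 (-2.22, SE 0.26) and AT1G56060 (-2.19, SE 0.44). The call for AT1G56060 was lost in 7 of the 12 fits without 1 array (adjusted p up to 0.0721). AT2G32200 had the largest difference among the 9 CYSTM genes, -4.79 (SE 0.29), and is listed for its size only, since it was chosen on the contrasts that make up this difference. Groups of 3 arrays are too small for a test of single outlying samples. The reading of AT1G05340 on the array labelled rb10 dark replicate 3 (11.90, against 10.92 and 10.88 on the other 2 arrays) is therefore given in the report without one.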

How the results depend on the processing

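Each of the 9 members' differences in 5 comparisons was computed again under the alternatives, 836 values in all. Of these 790 kept their direction and their side of the threshold, 8 lost their call, 20 gained one and 18 changed sign. Calls gained other than by leaving out an array were those of AT4G33660 for light in WT (adjusted p = 0.0494 with the lowest 25% left out, 0.0328 with the trended robust prior), and after light of AT3G22235 (0.0483 with quantile normalization, 0.019 with equal array medians), AT5G04080 (0.035 with the light groups alone, 0.0367 with equal array medians, 0.0358 with the trended robust prior) and AT3G22240 (0.0482 with that prior), all limma, besides those of AT2G32200 and AT4G33660 for light in rb10. All 18 changes of sign were of differences that had not passed. With rescaled arrays they were the interaction of AT3G22235 (-0.020 with quantile normalization, -0.029 with equal array medians) and of AT3G22240 (-0.018 with equal array medians). When 1 array was left out, the interaction ranged from -0.20 to 0.25 for AT3G22235, from -0.024 to 0.13 for AT3G22240 and from -0.32 to 0.18 for AT4G33660. The light difference in rb10 ranged from -0.41 to 0.094 for AT1G05340, from -0.16 to 0.088 for AT1G56060 and from -0.15 to 0.15 for AT5G04080, and the genotype difference of AT4G33660 in the dark from -0.40 to 0.053. The cause was not tested.

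All 8 lost calls were the interaction of AT1G56060, 7 when an array was left out and 1 with a replicate block (adjusted p = 0.0507), which changed no other member's call. Same-numbered arrays of different groups had correlations of their deviations of -0.043 to 0.073 (18 pairs, none above 0.1), so the numbers were not taken to pair the samples. As a hint the other way, 8 of 12 arrays correlated best with an array of their own number, where 3 of the 9 arrays of other groups share that number. The count of members called for light in rb10 was 0, but 1 with the lowest 25% left out (AT2G32200) and 1 with the trended robust prior (AT4G33660). It ranged from 0 to 1 when 1 array was left out, as did the count for rb10 against WT in the dark. The member counts of the other 3 comparisons stayed within 1.5 times under every alternative run.

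Over all probe sets, testing every probe set on the array gave 2289 calls for light in WT (1204 before), 2210 for light in rb10 (1254), 6251 for genotype after light (3355), 597 for the interaction (380) and 0 in the dark (1). In the dark the replicate block, the dark groups alone and the trended robust prior also gave 0. The rb10 arrays alone gave 580 for light in rb10. Leaving out 1 array gave 782 (without rb10 light replicate 2) to 1154 for light in rb10, 0 to 1761 (without rb10 dark replicate 3) in the dark, 2141 (without rb10 light replicate 2) to 4120 after light and 208 (without WT light replicate 1) to 394 for the interaction. The count for the interaction was also lower by over 1.5 times without WT dark replicate 1 (250) or 2 (248), WT light replicate 3 (250) or rb10 light replicate 2 (232). Equal array medians moved the median genotype difference after light by -0.149 and the split of its calls from 1700 higher and 1655 lower to 1160 and 2656. Under that setting the members that were lower in rb10 than in WT after light kept their direction, which a downward shift could not turn. AT3G22240, whose difference after light was positive, kept its sign too.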

Other observations

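Protein-coding genes directly beside the members in the annotation were read after the members' values had been seen, and 8 of 12 were paired with a probe set. In WT none of the 8 passed for light in limma, where 6.89% of all probe sets passed in either direction. An unadjusted p under 0.05 was reached by 0 of the 8. AT2G32220, which follows the block, differed by -0.19 (SE 0.28).

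For light in rb10, 1 of the 8 neighbours fell and 0 rose, where 3.75% of all probe sets fell and 3.42% rose. Between the genotypes after light, 2 of the 8 were lower in rb10 and 0 higher. Of all probe sets 9.47% were lower and 9.72% higher. Only the neighbours that passed are described next, and nothing is read from the counts. AT1G05330, beside AT1G05340, fell in rb10 after light by 1.48 in log2 (SE 0.19, adjusted p = 0.000698 in limma). AT1G05340 itself differed by -0.24 (SE 0.23) there. Without rb10 dark replicate 3 the difference was -1.36 for AT1G05330 (SE 0.20, adjusted p = 0.0027 in limma) and 0.094 for AT1G05340 (SE 0.13). After light both were lower in rb10 than in WT (AT1G05330 -1.79, SE 0.19, adjusted p = 0.000189 in limma, and AT1G05340 -1.21). AT1G05330 read 7.74, 7.91 and 8.19 in rb10 in the dark and 6.68, 6.34 and 6.38 after light. AT4G33666, beside AT4G33660, was lower in rb10 after light (-1.69, SE 0.26, adjusted p = 0.00161 in limma), while AT4G33660 differed by -0.22 (SE 0.27).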
